A study of Mus musculus with 20 samples.

Results

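The genes described here encode proteins that the airway secretes against microbes, from the surface epithelium and from the submucosal glands. The 9 genes were Ltf, Lpo, Pigr, Dmbt1, Bpifa1, Lyz1, Lyz2, Reg3g and Defb1. They were found by name on the array, where 3 still carried older names (Plunc for Bpifa1, Lzp-s for Lyz1 and Lyzs for Lyz2). They were measured by 12 of 41174 probes and are 9 of 27670 gene names. Ltf, Lyz2 and Defb1 each had a pair of probes, which are called here the brighter and the dimmer. All 12 probes were well above background on all 20 arrays, so that none was lost to the filter on dim probes, which left 26064 probes to test.

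Airway lining fluid kills or traps microbes with several proteins at once. Lysozyme cuts the bacterial cell wall, lactoferrin binds iron, lactoperoxidase turns thiocyanate and hydrogen peroxide into an oxidant, defensins disrupt membranes, and the polymeric immunoglobulin receptor carries IgA from plasma cells across the epithelium into the lumen. In the mouse trachea serous cells of the submucosal glands and secretory cells of the surface both contribute. Myd88 is an adaptor that passes signals from Toll-like and interleukin-1 family receptors to NF-kB, a pathway that switches on several genes of mucosal defence.

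Whole tracheas of C57/Bl6 mice, aged 4 months by the labels, were compared in 4 groups of 5 arrays. WT-control and KO-control were uninjured wild-type mice and uninjured mice without Myd88. By the methods, the knockout line was back-crossed to C57/Bl6 mice and then bred knockout to knockout. The wild-type mice came from a separate in-house colony, so each difference between genotypes is also a difference between colonies. WT-injury and KO-injury had received 2% polidocanol into the trachea 3 days before collection. Polidocanol is a detergent that strips the surface epithelium, and the deletion was not limited to any cell type. The methods describe biological replicates and mice of both sexes. The sex of each array was not used here. Each array gave, for a probe, a single-dye intensity. All levels below are log2 intensity relative to the 75th percentile of the same array, so that 0 is the level of that percentile and 1 unit is a doubling. Levels of different probes are not set against each other, because probes differ in how brightly they hybridize. Differences were fitted with limma over all 20 arrays, and a difference was called when its adjusted p, by the Benjamini-Hochberg method over all tested probes, was under 0.01.

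The arrays had 57.5% to 67.8% of their spots well above background, and their number, 5 in each group, limits the precision. The epithelial markers Cdh1, at 3.35 to 4.31, and Epcam, at 1.24 to 2.48, were measured on all 20 arrays. The probe for Myd88 was well above background on all arrays, at 1.94 to 2.28 in WT-control, 1.60 to 2.04 in KO-control, 2.36 to 2.80 in WT-injury and 1.54 to 2.09 in KO-injury. Its place relative to the deletion was not tested, so it does not check the genotype labels. The array labelled KO-injury 5 was closest to the uninjured arrays in some markers. Its level of Scgb3a2, a secretoglobin of club cells, was 9.10, within the 8.59 to 9.43 of the uninjured KO-control arrays, whereas the other KO-injury arrays had 7.94, 3.07, 5.52 and 3.21. Its sum over 11 macrophage markers was 16.5 times the 75th percentile, against 31.7, 74.2, 23.4 and 65.4 in the other KO-injury arrays and 16.8 to 31.0 in KO-control, so that KO-injury 3 was also at the uninjured level and KO-injury 1 just above it. When arrays were weighted by quality, KO-injury 1 (0.319) and KO-injury 5 (0.321) had the lowest weights, against 0.539 to 2.27 for the others. KO-injury 5 was thus not the only array of its group that stood apart. Because of its markers, the differences of the 9 genes that use KO-injury are given with and without KO-injury 5. For the other lists the calls that changed without it are given. Nearby tissue was present as well, since the sum over 5 thyroid markers lay between 86.4 and 473 times the 75th percentile, and its part in the results was not tested.

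The 9 genes divided into a single gene that fell with injury in both genotypes, a single gene that was lower in Myd88KO than in wild-type trachea, and 7 genes with no called difference. Bpifa1 fell 4.71-fold with injury in wild-type and 5.13-fold in Myd88KO tracheas. Lpo was 7.44-fold lower in Myd88KO than in wild-type tracheas after injury. With injury, 1 of the 9 genes was called in wild-type tracheas, where 5.26% of all tested probes were called, and 1 of 9 in Myd88KO tracheas, where 0.376% were. Between genotypes 0 of the 9 genes were called in uninjured tracheas (0.384% of all probes) and 1 of 9 in injured tracheas (0.38%). Whether the genotypes differed in how they responded to injury was tested for all probes, and none was called (0% of 26064 probes), although 2703 had an unadjusted p under 0.05, of which 0 belonged to the 9 genes.

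**Figure D1:**
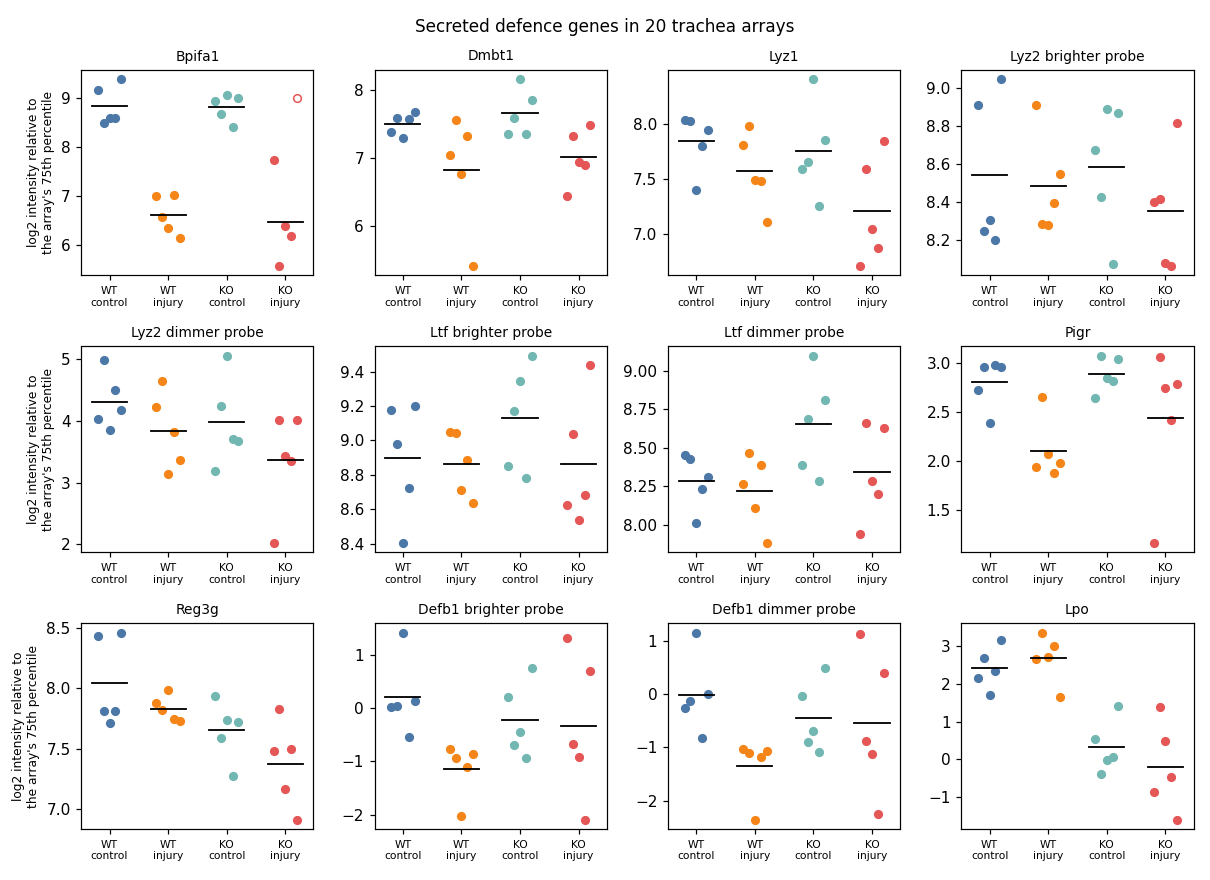
Log2 intensity of the 12 probes of 9 genes relative to the 75th percentile of each array (vertical axis, a separate scale in each panel) in the 4 groups, with a point for each array in order of its replicate number and a line at the group mean. The open circle for Bpifa1 is the spot of KO-injury 5 that was marked as non-uniform and left out, at 8.996. With that spot left out, Bpifa1 separates injured from uninjured arrays, and with it kept KO-injury 5 lies among the uninjured arrays. Lpo separates Myd88KO from wild-type arrays.

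Bpifa1 encodes a secreted protein of the upper airway surface and glands that lowers surface tension, binds bacterial lipids and limits sodium absorption. Its probe lay at chr2:153888533-153888953 in the coordinates of the array files, whose genome build is not given in the sources used here. The sequence upstream of the gene is shown because this was the member that changed most with injury. It is the 250 bases before the start, 5′ to 3′, in RefSeq (GRCm38.p6, chr2:154142630-154142879, plus strand), and it held none of the 3 motifs described with Reg3g, so that no base is in capitals.
Bpifa1: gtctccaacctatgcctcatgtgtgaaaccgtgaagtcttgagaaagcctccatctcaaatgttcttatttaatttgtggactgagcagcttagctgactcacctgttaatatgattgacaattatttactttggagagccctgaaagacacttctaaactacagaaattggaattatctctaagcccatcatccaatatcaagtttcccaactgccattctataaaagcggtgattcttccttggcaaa

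In wild-type mice the Bpifa1 level was 9.17, 8.50, 8.59, 8.60 and 9.39 in the 5 uninjured tracheas and 6.9999, 6.58, 6.34, 7.02 and 6.14 in the 5 injured tracheas. All injured arrays were below all uninjured arrays. Groups that did not overlap, in either direction, were found for 12.6% of all tested probes. The difference was −2.24 (SE 0.31), a 4.71-fold lower level (95% interval 2.99 to 7.41), with an adjusted p of 0.000372. Each of the 5 slides carried 1 array of each group. Because the groups did not overlap, the injured array was necessarily the lower on each slide (differences of −3.26 to −1.58). Within the slides of the first scan day the difference was −1.92 (adjusted p = 0.00137) and within those of the second −2.71 (adjusted p = 0.00632).

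In Myd88KO mice the level was 8.94, 8.69, 9.06, 8.41 and 9.01 in the uninjured tracheas and 7.73, 5.57, 6.38 and 6.17 in 4 injured tracheas. The spot of KO-injury 5 had been marked by the scanner software as non-uniform and was left out of the fit, and its value would have been 8.996, the level of an uninjured trachea. Without that spot the groups did not overlap, as was so in either direction for 3.45% of all probes. The difference was −2.36 (SE 0.33), a 5.13-fold lower level (95% interval 3.17 to 8.29), with an adjusted p of 0.00287. With the spot kept, the difference was −1.85 with an adjusted p of 0.0303, and with the whole array left out it was −2.36 with an adjusted p of 0.000191. The call was also lost, at adjusted p of 0.0102 to 0.0143, without any 1 of KO-injury 2, KO-injury 3, KO-injury 4 or KO-control 3. It was −2.68 (adjusted p = 0.000193) on the first scan day and −1.24 (adjusted p = 0.487) on the second, where KO-injury 1 was the single injured Myd88KO array with a value.

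The levels of Bpifa1 in the genotypes overlapped before injury, with a difference of −0.03 (95% interval −0.68 to 0.62), and after injury, with a difference of −0.15 (−0.85 to 0.54), which was −0.61 on the first and 1.16 on the second scan day. Among uninjured arrays the level was higher where the 75th percentile was lower, from 9.39 in WT-control 5 (percentile 495) to 8.41 in KO-control 4 (908). The intensity before scaling therefore changed little among them. Whether the probe could register more RNA than this was not tested, which limits the genotype comparison before injury and the size of the fall. The fall with injury differed between genotypes by −0.12 (95% interval −1.07 to 0.83, unadjusted p = 0.792). Over 19 arrays the 3 gene names whose level followed Bpifa1 most closely were Hmx3 (Pearson r = 0.967), Arhgdig (0.963) and Tmem212 (0.963), as a description over arrays that share the injury groups.

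Markers of surface secretory cells moved in the same samples. Of 10 such genes tested, 4 fell in wild-type tracheas with injury and 1 in Myd88KO tracheas (2 without KO-injury 5), among them Scgb1a1, the gene of the club cell secretory protein. The sum over the list was 1787 to 2985 times the 75th percentile in WT-control, 1040 to 1329 in WT-injury, 1829 to 2758 in KO-control and 1026 to 2247 in KO-injury, where the highest was again KO-injury 5. Scgb1a1 was at 6.98 to 7.93 in WT-control and −1.16 to −0.08 in WT-injury, and it was at 4.79, −0.84, 2.72 and 0.18 in 4 KO-injury arrays, with the spot of KO-injury 5 left out as non-uniform. In whole tissue, fewer cells of a type and less RNA per cell cannot be told apart. The part of the secretory cell markers in the fall of Bpifa1 was not tested.

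Lpo encodes lactoperoxidase, a haem enzyme of gland secretions. Its probe lay at chr11:87876483-87876542 in the array files. The 250 bases before its start are shown because this was the member that differed most between genotypes (RefSeq, GRCm38.p6, chr11:87826115-87826364, minus strand, printed 5′ to 3′ along the gene). None of the 3 motifs was found in them.
Lpo: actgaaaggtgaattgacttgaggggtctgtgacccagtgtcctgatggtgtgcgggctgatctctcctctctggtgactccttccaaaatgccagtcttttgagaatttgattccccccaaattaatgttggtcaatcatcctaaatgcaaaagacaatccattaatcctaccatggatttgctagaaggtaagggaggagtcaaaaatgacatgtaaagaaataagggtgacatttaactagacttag

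In uninjured tracheas the Lpo level was 2.15, 2.68, 1.72, 2.34 and 3.18 in wild-type and 0.55, −0.39, −0.01, 0.06 and 1.41 in Myd88KO mice. All Myd88KO arrays were below all wild-type arrays. The groups did not overlap, in either direction, for 2.51% of all tested probes. The difference was −2.09 (SE 0.47), a 4.26-fold lower level (95% interval 2.15 to 8.41). Its adjusted p of 0.0478 (unadjusted p = 0.000268) did not pass the threshold, and it passed at 0.00153 when arrays were weighted by their quality. Because the groups did not overlap, the Myd88KO array was necessarily the lower on all 5 slides (differences of −3.07 to −1.60). The difference was −2.36 (adjusted p = 0.0299) on the first and −1.69 (adjusted p = 0.668) on the second scan day.

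In injured tracheas the level was 2.67, 3.36, 2.73, 3.00 and 1.66 in wild-type and −0.88, 1.399, 0.49, −0.46 and −1.60 in Myd88KO mice. The groups again did not overlap, as was so in either direction for 1.96% of all probes. The difference was −2.89 (SE 0.47), a 7.44-fold lower level (95% interval 3.76 to 14.7), with an adjusted p of 0.00221. Without KO-injury 5, which had the lowest Lpo level of its group, the difference was −2.55 with an adjusted p of 0.0067. The Myd88KO array was thus again necessarily the lower on all 5 slides (differences of −3.54 to −1.96). The call was lost when only the injured arrays were fitted (adjusted p = 0.0608), and within the slides of the first scan day (−2.56, adjusted p = 0.0208). It was kept within those of the second (−3.40, adjusted p = 0.00781), which were only slides 1 and 5 and included KO-injury 5. In that setting 1251 probes were called over all probes, against 99 with all arrays.

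**Figure D2:**
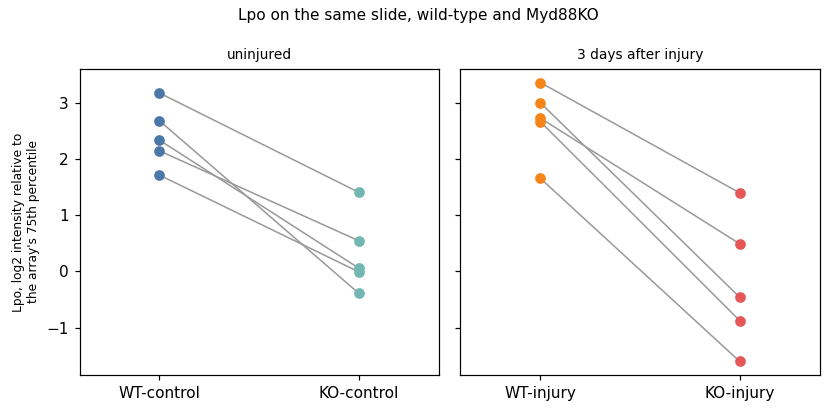
Lpo level, as log2 intensity relative to the 75th percentile of each array (vertical axis), in wild-type and Myd88KO tracheas, with a line joining the arrays of 1 slide, before (left) and 3 days after injury (right). The groups do not overlap in either panel, so the Myd88KO array is necessarily the lower on all 5 slides. The differences are −3.07 to −1.60 before and −3.54 to −1.96 after injury.

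Injury itself moved Lpo little relative to its spread, by 0.27 in wild-type (95% interval −0.71 to 1.26) and by −0.53 in Myd88KO tracheas (−1.51 to 0.45). The latter was −0.18 without KO-injury 5, and leaving out each array in turn gave −0.93 to −0.18 for it. The difference between these responses was −0.80 (95% interval −2.19 to 0.58, unadjusted p = 0.24) and −0.46 without KO-injury 5. The gene names that followed Lpo most closely over the 20 arrays, which share the genotype groups, were Limd1 (r = 0.881), Zbtb39 (0.861) and Rprd1b (0.857). Between genotypes, 0.384% of all tested probes were called in uninjured and 0.38% in injured tracheas. Within 5 Mb of the Lpo probe, 7 of 166 tested probes were called in uninjured and 7 in injured tracheas. The nearest of these, a probe of Cuedc1 at 0.378 Mb, was 2.03 higher in uninjured Myd88KO tracheas on the log2 scale (adjusted p = 9.69e-07). Around Bpifa1, 8 of 215 tested probes within 5 Mb were called in uninjured and 10 in injured tracheas, while Bpifa1 itself did not differ. Around Ltf, which lies 8.278 Mb from Myd88 in the array files, 1 of 217 was called in each, and around the other 6 genes 0 were. The part of these neighbours in the Lpo value was not tested.

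Lactoperoxidase needs hydrogen peroxide, made by the dual oxidases Duox1 and Duox2 with their partners Duoxa1 and Duoxa2, and thiocyanate, carried by transporters and channels of the epithelium. Of 8 genes of this supply, 0 were called between genotypes, before or after injury. In uninjured tracheas, those of lowest p were Slc5a8, an anion transporter (difference −0.68, adjusted p = 0.0836), Slc26a4, the exchanger pendrin (−2.45, adjusted p = 0.154), and Duoxa2 (−1.60, adjusted p = 0.233), all lower in Myd88KO, and Duoxa1 (0.85, adjusted p = 0.391), which was higher. After injury, Duoxa1 was at 1.401 to 2.07 in Myd88KO and 0.17 to 0.74 in wild-type tracheas (difference 1.43, adjusted p = 0.016), and Duoxa2 was at −2.87 to −1.95 and −1.73 to 1.08 (difference −2.02, adjusted p = 0.0504). With injury in wild-type tracheas, 2 of the 8 fell, Slc5a8 by 1.61 (adjusted p = 2.76e-05) and the chloride channel gene Ano1 by 0.74 (adjusted p = 0.00714) on the log2 scale, and in Myd88KO tracheas 0 were called with all arrays and 1, Slc5a8, without KO-injury 5 (−0.81, adjusted p = 0.00363). The median difference of the list with injury was −0.36 in wild-type and 0.17 in Myd88KO tracheas, against 7.88e-05 and −0.07 over all probes. Slc26a4, Duox2 and their partners also serve the thyroid, whose 5 markers summed to 94.7 to 358 times the 75th percentile in WT-control, 86.4 to 473 in KO-control, 125 to 402 in WT-injury and 96.4 to 218 in KO-injury, and their part in these values was not tested.

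**Figure D3:**
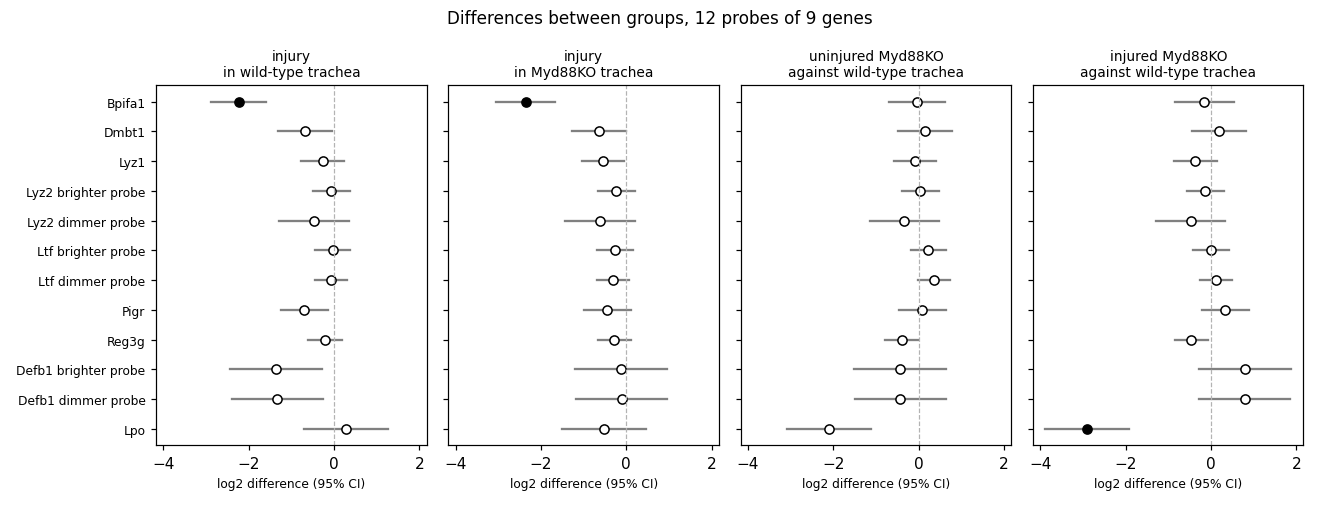
Log2 differences of the 12 probes in the 4 comparisons between groups (horizontal axis, the same in all panels), with 95% intervals from the limma fit and filled points where the adjusted p was under 0.01. The filled points are Bpifa1 in both injury comparisons, at −2.24 and −2.36, and Lpo between injured genotypes, at −2.89.

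Reg3g encodes a secreted lectin that kills Gram-positive bacteria, and in the intestine its expression is known to need Myd88. Its upstream sequence is shown because it was the only 1 of the 7 member genes with a RefSeq promoter entry that held a match to a kappaB letter pattern. It is 250 bases (GRCm38.p6, chr6:78468875-78469124, minus strand, printed 5′ to 3′ along the gene), and the capitals mark the match, from base 141 to base 133 before the start.
Reg3g: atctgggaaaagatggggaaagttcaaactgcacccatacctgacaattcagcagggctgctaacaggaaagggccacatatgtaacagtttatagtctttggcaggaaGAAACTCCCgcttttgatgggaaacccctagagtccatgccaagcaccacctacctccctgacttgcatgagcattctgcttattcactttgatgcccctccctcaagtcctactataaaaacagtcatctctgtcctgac

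The pattern searched was GGGANTTTC, the first 9 bases of a kappaB element, on both strands, and 0.941% of 32851 promoters held it in the same window. TTCNNNGAA, a pattern of STAT factors, was in 7.02% of promoters and 0 of the 7, and TTGCNNAA, a pattern of C/EBP factors, was in 9.56% and in 2 of the 7, Ltf and Lyz1. No matches overlapped in the windows of the 7 genes. A match describes letters only and shows no binding.

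The Reg3g level was 8.44, 7.81, 7.71, 7.81 and 8.46 in WT-control, 7.94, 7.59, 7.74, 7.27 and 7.72 in KO-control, 7.88, 7.82, 7.99, 7.74 and 7.73 in WT-injury and 7.48, 7.83, 7.16, 7.50 and 6.91 in KO-injury. The wild-type groups had the higher means, and the values of all groups overlapped. In WT-control the level was 8.44 and 8.46 where the array's 75th percentile was 591 and 495. It was 7.71 to 7.81 where the percentile was 842.5 to 873. KO-injury 5, at 6.91 with a percentile of 589, went the other way. Whether this probe could register more RNA was not tested, which limits the genotype comparison before injury. The difference between Myd88KO and wild-type was −0.40 before injury (95% interval −0.79 to −0.0034, unadjusted p = 0.0482, adjusted p = 0.88) and −0.46 after it (−0.85 to −0.07, unadjusted p = 0.0242, adjusted p = 0.305). On 4 of 5 slides the Myd88KO array was the lower in each of these comparisons, a count with no share of all probes beside it. Without KO-injury 5, which had the lowest level, the difference after injury was −0.34 (adjusted p = 0.541). With injury Reg3g differed by −0.21 (95% interval −0.61 to 0.18) in wild-type and by −0.28 (−0.67 to 0.11) in Myd88KO tracheas, where it was −0.16 without KO-injury 5. Its nearest genes in pattern were Sdc3 and Olfr930 (both r = 0.842) and B3gnt2 (0.808).

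Lyz1 and Lyz2 encode the lysozymes that in the mouse are named P and M, the first known from Paneth cells and glands and the second also from macrophages and neutrophils. The genes lie side by side on chromosome 10, and their upstream sequences are shown to let the pair be compared. Capitals mark the positions that differ when no gap is allowed. They were set against each other without gaps over 250 bases (GRCm38.p6, minus strand, chr10:117292869-117293118 for Lyz1 and chr10:117282273-117282522 for Lyz2). They agreed at 152 positions (60.8%), and the 50 bases next to the start were identical. Further from the start, similar stretches of the pair lie a single base out of register. Many capitals there mark this shift and not a difference in sequence, so the percentage understates how alike the pair is.
Lyz1: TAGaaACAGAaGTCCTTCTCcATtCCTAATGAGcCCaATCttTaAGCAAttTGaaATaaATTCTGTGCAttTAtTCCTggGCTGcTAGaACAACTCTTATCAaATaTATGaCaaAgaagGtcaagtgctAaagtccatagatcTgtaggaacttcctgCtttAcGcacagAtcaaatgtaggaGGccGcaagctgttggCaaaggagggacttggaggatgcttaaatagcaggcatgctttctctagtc
Lyz2: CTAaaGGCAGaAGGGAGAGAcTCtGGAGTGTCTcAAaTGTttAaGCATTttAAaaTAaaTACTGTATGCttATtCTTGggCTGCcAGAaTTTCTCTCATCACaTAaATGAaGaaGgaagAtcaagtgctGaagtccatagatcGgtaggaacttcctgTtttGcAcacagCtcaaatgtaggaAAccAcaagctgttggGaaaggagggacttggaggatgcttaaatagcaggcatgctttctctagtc

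The Lyz1 level was 8.04, 8.03, 7.40, 7.80 and 7.95 in WT-control, 7.81, 7.98, 7.49, 7.49 and 7.11 in WT-injury, 7.59, 7.66, 8.41, 7.26 and 7.85 in KO-control and 6.71, 7.59, 7.05, 6.87 and 7.84 in KO-injury. The mean was lowest in KO-injury, and all 4 groups overlapped. The difference with injury was −0.27 (95% interval −0.77 to 0.23) in wild-type and −0.54 (−1.04 to −0.04, adjusted p = 0.219) in Myd88KO tracheas, and the latter was −0.70 (adjusted p = 0.0574) without KO-injury 5. Between genotypes it was −0.09 (−0.59 to 0.41) before and −0.36 (−0.86 to 0.14) after injury, or −0.52 without KO-injury 5. No difference of Lyz1 was called.

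The Lyz2 probes, 4725 bases apart in the array files, did not follow each other. Over the 20 arrays they had r = 0.195, while the dimmer had r = 0.833 with Lyz1 and the brighter followed the ribosomal protein genes Rplp0 (r = 0.972) and Rplp1 (0.953) most closely. The brighter probe was at 8.91, 8.25, 8.31, 8.20 and 9.04 in WT-control, 8.91, 8.28, 8.28, 8.39 and 8.54 in WT-injury, 8.67, 8.42, 8.88, 8.07 and 8.87 in KO-control and 8.40, 8.42, 8.08, 8.06 and 8.81 in KO-injury. On slides 1 and 5, which share a scan day, both uninjured wild-type arrays were the higher of their group. This probe read higher where the array's 75th percentile was lower, from an intensity of 495 in WT-control 5 to 972 in KO-injury 3. Its intensity before scaling therefore changed little between arrays, although no spot of it was flagged as saturated. Whether the brighter probe could still rise was not tested. The dimmer probe was at 3.85 to 5.00 in WT-control, 3.15 to 4.65 in WT-injury, 3.20 to 5.06 in KO-control and 2.02 to 4.02 in KO-injury. The brighter probe differed with injury by −0.06 (95% interval −0.50 to 0.38) in wild-type and −0.23 (−0.67 to 0.21) in Myd88KO tracheas, and the dimmer by −0.47 (−1.29 to 0.35) and −0.61 (−1.43 to 0.20). Without KO-injury 5 the differences in Myd88KO tracheas were −0.35 and −0.77. Neither was called in any comparison. Whether the RNA of one lysozyme also hybridized to the other's probe was not tested, so the levels of this pair are uncertain.

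The mean of neither Lyz2 probe was higher after injury, when macrophage markers rose in wild-type tracheas, but the brighter probe may not have been able to show a rise. Of 11 macrophage genes, 9 rose in wild-type tracheas with injury, among them Cd68 (by 3.27, adjusted p = 0.000907) and Fcgr1 (by 3.60, adjusted p = 0.000791), and their sum went from 16.3 to 26.0 times the 75th percentile in WT-control to 42.9 to 126 in WT-injury. In Myd88KO tracheas 0 of 11 were called, with sums of 16.8 to 31.0 and 16.5 to 74.2. Of 8 neutrophil genes, 2 rose in wild-type and 0 were called in Myd88KO tracheas, and without KO-injury 5 these counts were 4 and 3. The sum over the neutrophil list ranged from 2.99 to 33.9 in WT-control, 16.6 to 263 in WT-injury, 0.668 to 2.92 in KO-control and 0.659 to 45.7 in KO-injury.

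Ltf encodes lactoferrin, which serous gland cells and neutrophils make. The brighter probe was at 9.18, 8.98, 8.40, 8.72 and 9.20 in WT-control, 9.05, 9.04, 8.71, 8.89 and 8.63 in WT-injury, 8.85, 9.17, 9.34, 8.78 and 9.49 in KO-control and 8.63, 9.04, 8.54, 8.68 and 9.44 in KO-injury. The groups lay on top of each other, and the difference with injury in wild-type was −0.03 (95% interval −0.45 to 0.38). The dimmer probe, 4609 bases away, had r = 0.826 with the brighter over the arrays. It was higher in uninjured Myd88KO than wild-type tracheas by 0.36 (95% interval −0.004 to 0.73, unadjusted p = 0.0524, adjusted p = 0.902), and the brighter by 0.23 (−0.18 to 0.64). In Myd88KO tracheas both probes were lower after injury, with mean differences of −0.26 and −0.31 (adjusted p = 0.496 and 0.353). These were −0.41 and −0.38 without KO-injury 5. Both probes were lower on 5 of 5 slides, but slides were not taken as pairs and the share of all probes with this was not computed. The dimmer probe followed Sox10, a factor of gland development, with r = 0.899, after Ncald (0.914) and Tmc8 (0.906).

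Dmbt1 encodes a large scavenger receptor protein of mucus that binds bacteria and viruses. The level was 7.39, 7.59, 7.29, 7.58 and 7.68 in WT-control, 7.04, 7.55, 6.77, 7.33 and 5.42 in WT-injury, 7.36, 7.58, 8.16, 7.35 and 7.85 in KO-control and 6.44, 7.33, 6.94, 6.90 and 7.49 in KO-injury. The groups overlapped. Injured arrays were lower than uninjured ones on 5 of 5 slides in each genotype. Slides were not taken as pairs, and the share of all probes with such a count was not computed. WT-injury 5 was the lowest of all 20 arrays, and without it the difference in wild-type tracheas was −0.33. With all arrays the difference was −0.68 (95% interval −1.32 to −0.05, adjusted p = 0.154) in wild-type and −0.64 (−1.28 to −0.01, adjusted p = 0.251) in Myd88KO tracheas, and −0.76 (adjusted p = 0.129) in the latter without KO-injury 5. The genes that followed Dmbt1 most closely were Elapor1 (r = 0.88), Lrrc26 (0.857) and Dcpp1 (0.849), the last of which is on the list of gland acinar genes.

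Of 13 acinar gland genes tested, 0 were called in any of the 5 comparisons. In uninjured tracheas their median difference between Myd88KO and wild-type was 0.42, against 0.04 over all probes, and 3 of 13 had an unadjusted p under 0.05: Sox10 (0.64, adjusted p = 0.565), the water channel gene Aqp5 (0.44, adjusted p = 0.745) and the trefoil peptide gene Tff2 (0.76, adjusted p = 0.871). The sum over the list was 434 to 729 times the 75th percentile in WT-control, 542 to 1169 in KO-control, 261 to 798 in WT-injury and 445 to 748 in KO-injury, with the lowest in WT-injury 5. The median differences with injury were −0.25 in wild-type and −0.64 in Myd88KO tracheas. Salivary markers, of which 4 were tested, summed to 5.47 to 11.5 in WT-control, 3.50 to 5.40 in WT-injury, 8.26 to 12.5 in KO-control and 3.31 to 15.5 in KO-injury, and 0 were called with all arrays. Without KO-injury 5, 1 of them fell in Myd88KO tracheas. Salivary glands also make lactoperoxidase, Dmbt1 protein and lysozyme, and the part of these markers in the values of the glands' genes was not tested.

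Pigr encodes the polymeric immunoglobulin receptor. The level was 2.72, 2.96, 2.39, 2.98 and 2.96 in WT-control, 1.94, 2.65, 2.07, 1.88 and 1.98 in WT-injury, 2.65, 3.07, 2.85, 2.82 and 3.04 in KO-control and 1.17, 3.06, 2.74, 2.42 and 2.79 in KO-injury. The injured array was the lower on 5 of 5 slides in each genotype, while WT-injury 2 lay within the range of the uninjured wild-type arrays. Slides were not taken as pairs, and no share of all probes stands beside this count. The difference was −0.70 (95% interval −1.25 to −0.15, adjusted p = 0.0903) in wild-type and −0.45 (−1.001 to 0.10, adjusted p = 0.365) in Myd88KO tracheas. The latter was −0.54 without KO-injury 5 and −0.13 without KO-injury 1, the lowest array. The wild-type difference was called when arrays were weighted by their quality (−0.79, adjusted p = 0.0065). Between genotypes the difference was 0.08 (95% interval −0.47 to 0.63) before and 0.33 (−0.22 to 0.88) after injury, or 0.24 without KO-injury 5. Klf9 (r = 0.852), Slc12a2, a chloride cotransporter gene of gland acini (0.818), and Pkdcc (0.809) followed Pigr most closely.

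Pigr carries IgA joined by the J chain, so genes of plasma cells were set beside it. Of 8 tested, 3 fell with injury in wild-type tracheas: Jchain, the J chain gene, by 4.28 (adjusted p = 0.00366), Mzb1, a chaperone gene of plasma cells, by 1.68 (adjusted p = 0.000989), and Pou2af1, a B cell coactivator gene, by 1.21 (adjusted p = 0.00781) on the log2 scale. In Myd88KO tracheas 0 of 8 were called, and Jchain differed by 1.02 (adjusted p = 0.558). The Jchain level was 3.70, 1.55, −0.94, 4.37 and −0.23 in WT-control, −3.25, −3.43, −3.51, −0.76 and −1.96 in WT-injury, −2.75, −1.29, −0.81, −2.46 and −2.08 in KO-control and 0.74, −0.83, −2.32, −1.68 and −0.19 in KO-injury. The wild-type controls were spread over more than 5 units, with 3 of them above all other arrays. The injury responses of Jchain differed between genotypes by 5.30 (unadjusted p = 0.000367, adjusted p = 0.39), which did not pass the threshold. The median of the list with injury was −0.37 in wild-type and −0.07 in Myd88KO tracheas. Igha, Cd79a and Ms4a1 were not tested.

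Defb1 encodes a beta-defensin that epithelia make without induction. The brighter probe was at 0.03, 0.04, 1.42, −0.55 and 0.13 in WT-control, −0.76, −0.94, −2.02, −1.11 and −0.87 in WT-injury, 0.21, −0.70, −0.45, −0.93 and 0.76 in KO-control and 1.31, −0.68, −0.93, −2.10 and 0.70 in KO-injury. In wild-type mice all injured arrays were below all uninjured arrays. Groups that did not overlap, in either direction, made up 12.6% of all tested probes in this comparison. The KO-injury arrays, which spanned more than 3 units, reached both above and below all KO-control arrays. The difference was −1.35 (95% interval −2.43 to −0.28, adjusted p = 0.0928) in wild-type and −0.12 (−1.20 to 0.96, adjusted p = 0.928) in Myd88KO tracheas, and the latter was −0.38 without KO-injury 5. The difference between these responses was 1.24 (95% interval −0.29 to 2.76, unadjusted p = 0.106) and 0.98 without KO-injury 5, so that they were not shown to differ. Between injured genotypes Defb1 differed by 0.80 (95% interval −0.27 to 1.88, adjusted p = 0.549), or 0.54 without KO-injury 5. This difference was 0.12 (adjusted p = 0.94) on the first scan day. It was 1.82 (adjusted p = 0.00753) on the second, which held only slides 1 and 5 and included KO-injury 5. Over all probes 1251 were called in that setting, against 99 with all arrays. The dimmer probe, 11 bases away, gave −1.33 and −0.11. WT-control 3, the highest Defb1 array of its group, also had the highest sum over 7 basal cell markers, at 605 times the 75th percentile against 150 to 316 in the other WT-control arrays. WT-injury 2 had a similar sum, at 603, with Defb1 at −0.94, so the 2 did not go together in all arrays. The part of the basal markers in the result was not tested. The genes that followed Defb1 most closely were Rhobtb1 (r = 0.87), Fam162a (0.844) and Rabgef1 (0.834).

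The other secreted defence genes of the airway went in both directions. Of 18 tested, 3 rose and 2 fell with injury in wild-type tracheas. Bpifb5 and Bpifb9a, of the same family as Bpifa1 (the latter named after its values were seen), rose by 4.41 (adjusted p = 8.01e-05) and 4.72 (adjusted p = 0.00367), and Lcn2, which binds bacterial siderophores, rose by 3.62 (adjusted p = 0.00207). Chia1, an acidic chitinase gene, fell by 3.25 (adjusted p = 0.000239), and Sftpd, a collectin gene, fell by 1.87 (adjusted p = 0.00294). The other relatives tested were not called, with differences of −1.24 for Bpifb1 (adjusted p = 0.0622), −0.41 for Bpifb2 and −0.54 for Bpifb6.

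In Myd88KO tracheas 0 of the 18 were called with injury, although Bpifb5 and Bpifb9a differed by 2.55 and 4.88 (adjusted p = 0.012 and 0.0121). Without KO-injury 5, 2 rose, Bpifb5 (by 2.89, adjusted p = 0.001) and Bpifb9a (by 5.36, adjusted p = 0.00209), and 2 fell, Chia1 (by 1.97, adjusted p = 0.000838) and Sftpd (by 1.64, adjusted p = 0.00599). The medians of the list were −0.19 in wild-type and −0.05 in Myd88KO tracheas.

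Lcn2 was the single gene of the list called between genotypes, in injured tracheas. Its level was 1.43, −0.56, 0.07, 0.34 and 2.41 in WT-injury and −4.91, −1.30, −3.83, −1.21 and −4.83 in KO-injury, where 3 of 5 arrays were well above background, against −3.46 to −1.78 in WT-control and −4.26 to −3.70 in KO-control. The Myd88KO arrays were all below the wild-type arrays after injury, with a difference of −3.95 (adjusted p = 0.00381), and without KO-injury 5 the difference was −3.55 and no longer called (adjusted p = 0.0149). Neutrophils also make Lcn2, and KO-injury 2 and KO-injury 4, which had the highest Lcn2 of their group, also had its highest neutrophil sums, at 21.7 and 45.7 times the 75th percentile. The part of the neutrophil markers in the Lcn2 values was not tested. The difference between the injury responses of Lcn2 was −2.80 (unadjusted p = 0.00844, adjusted p = 0.391), which did not pass the threshold.

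**Figure D4:**
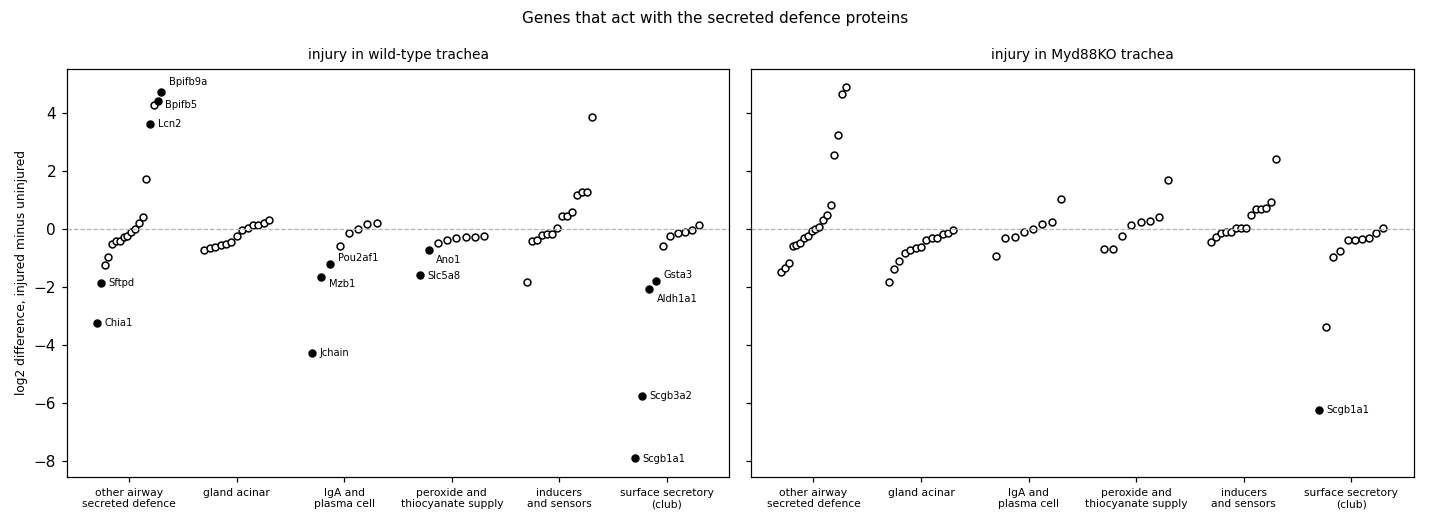
Log2 differences with injury (vertical axis, injured minus uninjured) in wild-type (left) and Myd88KO tracheas (right) for the genes of 6 lists, a point for each gene, filled and named where the adjusted p was under 0.01. In wild-type tracheas the highest filled points are Bpifb9a (4.72), Bpifb5 (4.41) and Lcn2 (3.62) and the lowest Scgb1a1 (−7.91), Scgb3a2 (−5.77), Jchain (−4.28) and Chia1 (−3.25), while in Myd88KO tracheas the single filled point is Scgb1a1 (−6.24).

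Of 14 genes that sense microbes or induce mucosal defence, 0 were called with injury in either genotype. Without KO-injury 5, 2 rose in wild-type tracheas, Il1b (adjusted p = 0.00867) and Myd88 (adjusted p = 0.00869). With all arrays, in wild-type tracheas Myd88 differed by 0.58 (adjusted p = 0.0111), Il1b, the interleukin-1 beta gene, by 3.84 (adjusted p = 0.0228), Socs3, a feedback inhibitor gene of STAT signalling, by 1.28 (adjusted p = 0.0312) and Tlr2, a receptor gene for bacterial lipoproteins, by 1.27 (adjusted p = 0.0556). Between genotypes 1 was called, Myd88 itself after injury, with a difference of −0.77 (adjusted p = 0.00824), which was −0.71 and not called without KO-injury 5 (adjusted p = 0.0304). Before injury those of lowest p were Tnf (−1.95, adjusted p = 0.14), Il1a (−2.54, adjusted p = 0.195) and Nfkbiz, an NF-kB regulator gene (−0.80, adjusted p = 0.357). Il17a, Il17c, Il22 and Il6 were not tested.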

How the data were processed

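RNA of 20 whole tracheas was hybridized with 1 dye to Agilent whole mouse genome arrays. The authors deposited scanner output in which each spot intensity had been background-subtracted and detrended by Feature Extraction 9.5.1.1, with no scaling between arrays, and a value table with the same intensity (ratio 0.995 to 1.00). Control spots (1639 of 45018 per array) and 1960 values marked as outliers were left out. The log2 intensity was averaged per probe and set relative to the array's 75th percentile. Probes well above background on at least 10 of 20 arrays were tested. All arrays were fitted together in R 4.3.3 with limma 3.58.1 (lmFit, eBayes), which was tested on simulated data, with a mean per group and 5 contrasts. P values were adjusted by Benjamini-Hochberg within each contrast.

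Named were all probes of the 9 genes, the brighter standing for a gene in counts, up to 4 genes per pathway list and comparison by lowest p, further genes of a list where a result turned on them, the 3 genes most alike by Pearson r, and neighbours within 5 Mb. Genes were named through RefSeq (GRCm38.p6, names and upstream sequence only), in which 22951 probes matched by accession, 6659 by symbol and 3109 by older symbol, and 8455 kept the array's name. Dmbt1 and Defb1 had no promoter entry. The 9 genes and the lists (158 genes) were chosen with earlier results of these data known. Each of 5 slides held 1 array of each group, and slides were scanned on 2 days. Alternatives were another background correction, scaling or filter, outliers kept, slide, scan day or array weights in the fit, only the groups compared, the value table, the methods' one-way test, and leaving out each array.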

Additional observations from a re-analysis of the deposited data

Results flagged for a closer look

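In 3 of 48 sets (12 probes in 4 groups) a single array lay far from the others, as chance gives in about 1 of 20 independent sets. Each set had 5 arrays, except Bpifa1 in KO-injury with 4. Pigr was at 2.65 in WT-injury 2, above the other injured wild-type arrays (gap 0.756 of the group's range). Defb1 was lowest in WT-injury 3, at −2.02 with the brighter probe (0.723) and −2.35 with the dimmer (0.893). The Defb1 probes lie 11 bases apart and had r = 0.998 over the 20 arrays, so their flags are not separate observations.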

How the results depend on the processing

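Bpifa1 with injury in wild-type tracheas stayed called under all alternatives. The count of the 9 genes called with injury in Myd88KO tracheas, 1 with Bpifa1, was 0 with outlier spots kept, with only the groups compared, with the methods' one-way test and on the second scan day, and 0 to 1 when each array was left out. Between injured genotypes the count was 0 with only the groups compared, with the one-way test and on the first scan day, and 2 on the second (Lpo and Defb1). On that second day 1251 probes were called over all probes, against 99 with all arrays. With array weights it was 2 with injury in wild-type (Pigr added) and 1 between uninjured genotypes (Lpo).

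Some small differences, none of them called, changed sign. With normexp background correction Bpifa1 between uninjured genotypes was 0.0076 and Ltf between injured genotypes −0.0017. Scaled to the array median, injury in wild-type gave 0.0333 for Ltf and 0.0056 for Lyz2. With quantile normalization the values were 0.1225 for Ltf with injury in wild-type, 0.0285 for Lyz2 in Myd88KO, −0.0045 for Lyz2 between uninjured genotypes, 0.0721 for Bpifa1 and 0.0633 for Lyz2 between injured genotypes, and for the difference of responses 0.1888 (Bpifa1), 0.0061 (Lyz1), 0.0678 (Lyz2) and 0.2441 (Reg3g). With outlier spots kept, injured genotypes differed by −6e-04 for Ltf and 0.3574 for Bpifa1, and the responses by 0.3864 for Bpifa1. With array weights the values were 0.0195 for Lpo in Myd88KO injury, −0.053 for Ltf between injured genotypes and 0.0157 for the Reg3g responses. Chosen after seeing the data were the 2 scan days apart and outlier spots kept without KO-injury 5. The first day gave 0.5904 for Lpo in Myd88KO injury and 0.1541 for Bpifa1 between uninjured genotypes. The second gave −0.4986 for Lpo in wild-type injury, and 1.163 for Bpifa1 between injured genotypes and 1.4696 for its responses. Without KO-injury 5 and with outliers kept, Ltf between injured genotypes was −0.1405, and the responses differed by −0.0743 for Dmbt1 and 0.0547 for Reg3g. The cause was not tested.

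Leaving out each array gave −0.1557 to 0.044 for Ltf and −0.1665 to 0.0656 for Lyz2 with injury in wild-type, and −0.5307 to 0.3221 for Defb1 in Myd88KO. Between injured genotypes it gave −0.1427 to 0.082 for Ltf, −0.1559 to 0.3785 for Dmbt1 and −0.5749 to 0.1468 for Bpifa1. Between uninjured genotypes it gave −0.0213 to 0.1408 for Pigr, −0.1186 to 0.1055 for Bpifa1, −0.2522 to 0.0358 for Lyz1 and −0.0432 to 0.17 for Lyz2. For the difference of responses it gave −0.3099 to 0.2244 for Dmbt1, −0.5447 to 0.177 for Bpifa1 and −0.1767 to 0.0538 for Reg3g.

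Over all probes, calls with injury in Myd88KO tracheas were 98, but 1075 without KO-injury 5, 1901 with array weights, 361 with scan day as a block, 56 scaled to the median, 60 with no filter and 0 with only the groups compared or the one-way test. With injury in wild-type they were 1372, but 2598 with weights and 2106 with scan day. Between genotypes they were 100 and 99, but 180 with weights (uninjured), 63 and 63 with the strict filter, 46 and 21 by the one-way test, and 38 with only the injured groups. Arrays of a slide share a replicate number. Their deviations correlated by −0.262 to 0.476 (median 0.242, 23 of 30 pairs over 0.1), and 1 of 20 arrays matched its own slide best in every other group, so the numbers were not taken as pairs. With the replicate block the 9 genes had 1, 1, 0, 1 and 0 calls in the 5 comparisons and all probes 1548, 143, 101, 112 and 1.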
